A study of Mus musculus with 16 samples.

Results

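The genes described here are 44 regulators and targets of the cell division cycle, measured in the cerebellum of mice with and without the ATM kinase and with and without nicotinamide riboside (NR). They were chosen by name, as cyclins, cyclin-dependent kinases, E2F and retinoblastoma family members, DREAM complex subunits, mitotic genes, replication genes and CDK inhibitors, and were found on the arrays through the transcript accession of each probe. They carried 72 probes, out of 56605 different probes and 22911 named genes on the array.

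RNA from the cerebellar cortex of individual mice was hybridised to 16 one-colour arrays, 4 per group. The strain was B6;129S4-Atmtm1Bal/J, in which both copies of Atm carry a targeted mutation in the Atm-/- mice, and WT littermates served as controls. All mice were labelled male and were 3.5 months old. The vehicle (veh) groups of either genotype drank plain water, and the NR groups drank water with 3.5 mg/ml (12 mM) NR for 2 months. NR is a precursor of NAD+, and the study asked whether raising NAD+ alters the state of ATM-deficient tissue. The mutation is present in all cells of these animals, and a whole piece of cerebellum was profiled, so that fewer cells of a type and less RNA per cell cannot be told apart. Markers of granule neurons, Purkinje cells and Bergmann glia were detected on all 16 arrays, which fits the labelled tissue.

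Passage through the cell cycle is driven by cyclins bound to their kinases, which phosphorylate the pocket proteins Rb1, Rbl1 and Rbl2. In resting cells, Rbl2 or Rbl1 joins E2f4 or E2f5, a DP partner (Tfdp1 or Tfdp2) and the MuvB core (Lin9, Lin37, Lin52, Lin54 and a histone-binding subunit) in the DREAM complex, which keeps cell cycle genes silent, and in dividing cells the MuvB core instead joins Mybl2 and Foxm1 and switches mitotic genes on. Nearly all neurons of the adult cerebellum have left the cell cycle, while glial and vascular cells can still divide.

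Values are normalised log2 intensities, so that a difference of 1 is a doubling. A probe was tested if all 4 arrays of some group read it well above its local background, and each difference was tested with limma across all 37253 such probes, with a Benjamini-Hochberg adjusted p under 0.05 counted as a call. For a gene with several tested probes the brightest is given unless stated.

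Most of these genes were measurable in the adult cerebellum. Of the 72 probes, 57 (79.2%) passed the background criterion, against 65.8% of all probes, and they covered 40 of the 44 genes. For 37 genes a probe was above background on all 16 arrays. The G1 and DREAM genes, namely the D-type cyclins with Cdk4, every E2F and DP factor, the pocket proteins and the MuvB core, were all among those 37, and so were the replication genes Mcm2 to Mcm7 and Pcna. The genes missing from the tested set were the kinase Cdk6, on 0 of 16 arrays, and 3 genes of late S phase and mitosis. Bub1, a spindle checkpoint kinase, was above background on 3 WT veh and 2 Atm-/- veh arrays and on 0 of the 8 NR arrays. Cdk1, the mitotic kinase, was above background on 2 Atm-/- veh arrays and on 1 array of each other group. Top2a, the topoisomerase of dividing cells, reached background on 1 WT veh and 1 Atm-/- veh array on its more often detected probe.

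The number of detectable members was highest in the Atm-/- veh group. All 40 tested genes were above background on its 4 arrays, against 38 in each WT group and 37 in Atm-/- NR. Over all probes the share was also highest there, at 66.3%, against 63.2% in WT veh, 60.8% in WT NR and 57.3% in Atm-/- NR. Cyclin E2 (Ccne2), the mitotic kinase Aurkb and the dimmer probes of cyclin A2 (Ccna2) and Rbl1 entered the tested set through the Atm-/- veh arrays alone, so their differences from that group are open to this selection. Ccne2 and Aurkb were both above background on 4 Atm-/- veh, 3 WT veh and 1 WT NR array, and in Atm-/- NR on 1 array for Ccne2 and 0 for Aurkb.

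**Figure D1:**
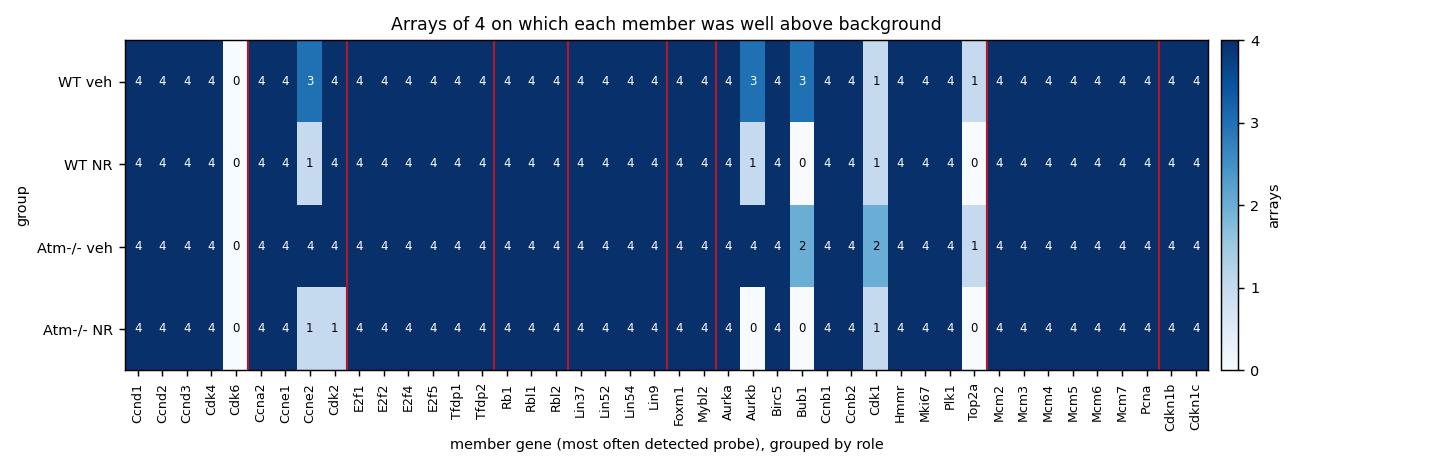
Grid of the 44 member genes (columns, ordered by role) against the 4 groups (rows), in which colour and number give on how many of the 4 arrays the most often detected probe was well above background. Most columns read 4 throughout, and the paler cells are Cdk6, Ccne2, Cdk2, Aurkb, Bub1, Cdk1 and Top2a.

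Cell cycle genes controlled by DREAM or E2F carry recognisable promoter motifs, and the 200 bases before the annotated start are shown for Hmmr and for the mitotic, MuvB and replication member with the lowest unadjusted p (Plk1, Lin37 and Mcm7). Sequences are from RefSeq, build GRCm38.p6. Capitals mark the cell cycle homology region (CHR, searched as TTTGAA or TTTAAA), the E2F motif (TTCCCGC or TTGGCGC) and the CCAAT box, each on both strands. The E2F motif TTGGCGC can share its first letters with a CCAAT box read on the other strand.
Hmmr (chr11:40733438-40733637, minus strand): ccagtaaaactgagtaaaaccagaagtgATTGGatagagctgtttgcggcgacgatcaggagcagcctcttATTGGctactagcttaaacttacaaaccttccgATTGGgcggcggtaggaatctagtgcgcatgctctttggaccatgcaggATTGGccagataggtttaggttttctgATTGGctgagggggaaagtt
Plk1 (chr7:122159235-122159434, plus strand): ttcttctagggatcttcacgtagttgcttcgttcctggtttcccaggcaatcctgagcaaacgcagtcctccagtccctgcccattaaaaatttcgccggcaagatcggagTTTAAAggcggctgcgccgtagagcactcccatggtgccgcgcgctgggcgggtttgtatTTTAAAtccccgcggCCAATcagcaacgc
Lin37 (chr7:30559647-30559846, minus strand): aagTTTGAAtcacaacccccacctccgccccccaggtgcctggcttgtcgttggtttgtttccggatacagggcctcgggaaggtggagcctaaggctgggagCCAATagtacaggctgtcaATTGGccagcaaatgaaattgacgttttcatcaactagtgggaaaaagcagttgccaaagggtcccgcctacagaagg
Mcm7 (chr5:138171884-138172083, minus strand): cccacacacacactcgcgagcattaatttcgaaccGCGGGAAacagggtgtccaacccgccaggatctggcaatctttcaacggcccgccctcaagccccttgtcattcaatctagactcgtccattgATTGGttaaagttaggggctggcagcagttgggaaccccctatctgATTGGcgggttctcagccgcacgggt

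The Hmmr stretch held 5 CCAAT boxes and no other searched motif. Plk1 held 2 CHR motifs and 1 CCAAT box, Lin37 held 1 CHR motif and 2 CCAAT boxes, and Mcm7 held 1 E2F motif and 2 CCAAT boxes. Over windows from 250 bases before to 50 after the start, 38 promoters of 32 members were available. After the start, outside the stretches shown, Hmmr and Plk1 each held a CHR motif (at +8 and +30). There Mcm7 held an E2F motif (+20) and a CCAAT box (+23). A CHR motif was in 20 of them (52.6%), against 27.6% of 32851 promoters of all genes. An E2F motif was in 11 (28.9%, against 6.81%) and a CCAAT box in 24 (63.2%, against 37.4%). These are letter matches, and no binding was measured here.

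A pair of arrays, WT veh 4 and Atm-/- veh 3, stood apart from the rest and bear on several members. On WT veh 4, choroid plexus markers were far above all other arrays: all 5 of the tested genes of a 6-gene list were highest there, with a mean log2 level of 14.03 against 6.45 to 9.09 elsewhere, and Ttr stood at 18.05 against at most 12.62. Forebrain markers were also highest there on 3 of the 4 tested genes, at a mean of 9.68 against 6.42 to 7.44. The microglia markers Cx3cr1, Tmem119, Aif1 and Csf1r were highest on WT veh 4 as well. On Atm-/- veh 3, the 4 tested red blood cell genes (Hba-a1, Hba-a2, Hbb-bt and Alas2) were all highest, at a mean of 17.00 against 14.20 to 15.22. Atm-/- veh 3 was also the highest for Gfap (13.79 against at most 12.93), C1qa, Cldn5 and Cdh5. It was not the highest for the other astrocyte, microglia and endothelial markers. The red blood cell mean ranged from 14.20 to 17.00 over the Atm-/- veh arrays and from 14.82 to 15.06 over the Atm-/- NR arrays, and the WT ranges were 14.68 to 15.22 with vehicle and 14.40 to 14.91 with NR. The choroid plexus mean ranged from 6.73 to 14.03 in WT veh and from 6.45 to 8.34 over the Atm-/- veh arrays. None of these marker genes was at 0. In addition Atm-/- veh 3, Atm-/- NR 4 and the WT NR arrays 1 and 4 lacked signal for the Y-linked gene Eif2s3y although all mice were labelled male. One slide held the WT arrays and the other the Atm-/- arrays, and on each the vehicle arrays filled one row and the NR arrays the other. Slide and genotype, and row and treatment, therefore cannot be told apart.

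Genes of dividing cells were raised on the array with the red blood cell signal. Of the 8 tested mitotic genes, 7 were highest on Atm-/- veh 3, as were 12 of all 40 tested members (30%, against 9% of 16737 genes). The proliferation marker Mki67 was at 6.01, 4.79, 8.38 and 5.58 on the Atm-/- veh arrays, while the 12 arrays of the other groups read 5.39 to 6.46. The survivin gene Birc5 was at 7.998, 7.533, 8.986 and 7.341 in Atm-/- veh, and the other arrays read 7.41 to 8.13. In both cases the third Atm-/- veh array was the highest of the 16, and the other 3 lay within or below the range of the other groups.

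The same array was highest for E2f2, an activating E2F factor, and for cyclin A2, the partner of Cdk2 in S phase. E2f2 was at 6.62, 6.79, 9.51 and 6.40 in Atm-/- veh, with other arrays reading 6.07 to 7.34. Its dimmer probe showed the same pattern, with 8.31 on Atm-/- veh 3 and at most 6.37 outside that group. Ccna2 was at 6.62, 6.64, 8.08 and 6.95 in Atm-/- veh, with other arrays reading 5.97 to 7.16. The part of the red blood cell signal, or of the other markers highest on that array, in these values was not tested.

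**Figure D2:**
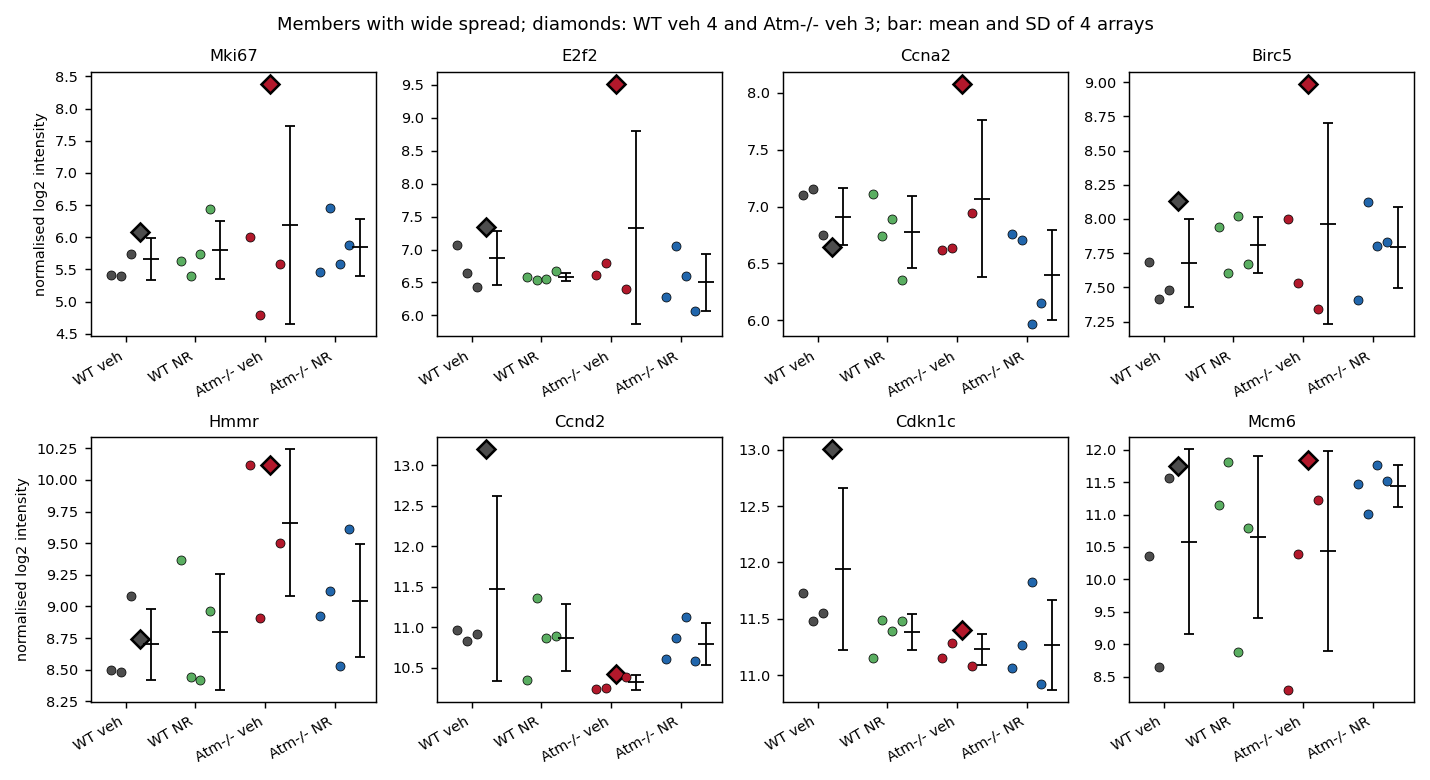
Normalised log2 intensity (vertical axes) of 8 members with a wide spread, 1 panel per gene, with each point an array of the 4 groups, diamonds for WT veh 4 and Atm-/- veh 3, and bars for the mean and SD of 4 arrays. Atm-/- veh 3 is the highest of 16 for Mki67, E2f2, Ccna2 and Birc5, WT veh 4 is the highest for Ccnd2 and Cdkn1c, and Mcm6 spreads from 8.30 to 11.84 without following the groups.

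NR treatment of Atm-/- mice was accompanied by lower signal of several DREAM and G1/S genes. Against Atm-/- veh, 9 of the 57 member probes (15.8%) were called and all 9 were lower, on 7 genes: the DREAM subunits Lin37, Rbl2, E2f4, E2f5 and Tfdp1, and the kinases Cdk2 and Cdk4. Over all tested probes 9.04% were called, 4.48% lower and 4.56% higher. At an unadjusted p under 0.05 the members (14 probes, 24.6%) were close to all probes (27.3%). The median log2 difference over the 40 genes was -0.15, against 0.04 over all genes, with 27 lower and 13 higher. Groups did not overlap for 15 probes (26.3%, against 20.2% of all), 10 of them lower (9.09% of all probes) and 5 higher (11.1% of all). No member was called higher.

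Lin37, a subunit of the MuvB core, had the lowest adjusted p of all the members. It was at 12.48, 12.23, 12.16 and 12.46 in Atm-/- veh and at 11.91, 11.86, 11.71 and 11.79 in Atm-/- NR. The groups did not overlap, and all 4 treated arrays also lay below the 4 WT veh arrays (12.12 to 12.21). Lin37 fell by 30.1% (log2 difference -0.52, 95% interval -0.70 to -0.34, limma adjusted p = 0.00729). The call held in each of the 25 alternative analyses.

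Rbl2 encodes p130, the pocket protein of the DREAM complex in resting cells. It was at 10.12, 9.52, 9.88 and 10.09 in Atm-/- veh and at 9.40, 9.16, 9.19 and 9.12 in Atm-/- NR, with no overlap. WT veh arrays lay between, at 9.42 to 9.52. Rbl2 fell by 37.9% (log2 difference -0.69, 95% interval -0.97 to -0.41, limma adjusted p = 0.0114), and it kept the call in 24 of 25 alternatives. The exception left out the 4 arrays without Y-linked signal (-0.67, adjusted p = 0.0699). The other pocket proteins were not called: Rbl1 (p107) differed by -0.24 (95% interval -0.56 to 0.09) and Rb1 by 0.04 (-0.11 to 0.20). The dimmer probe of Rbl1 was above background on 4 Atm-/- veh and 0 Atm-/- NR arrays. Its mean was nevertheless higher in Atm-/- NR (4.985) than in Atm-/- veh (4.595), so the detection count does not show a fall.

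E2f4 and E2f5 encode the repressor E2Fs that bind DNA for DREAM. E2f4 was at 9.34, 9.10, 8.42 and 8.97 in Atm-/- veh and at 8.37, 7.98, 8.24 and 8.21 in Atm-/- NR. The lowest vehicle array, the one with the red blood cell signal, was close to the treated arrays. E2f4 fell by 40.9% (log2 difference -0.76, SE 0.19, adjusted p = 0.028), and without that array the difference was -0.94 (adjusted p = 0.0156). The call was lost in 6 of 25 alternatives, among them leaving out Atm-/- veh 1 or 4 or Atm-/- NR 2, 3 or 4.

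E2f5 was at 9.43, 9.36, 9.42 and 9.45 in Atm-/- veh and at 9.26, 9.17, 9.04 and 9.04 in Atm-/- NR. The vehicle arrays lay within 0.1 of each other and above all treated arrays. E2f5 fell by 18% (log2 difference -0.29, SE 0.08, adjusted p = 0.0478), close to the threshold, and the call was lost in 16 of 25 alternatives. The activating factors E2f1 and E2f2 were not called, at 0.47 (95% interval 0.00 to 0.94) and -0.83 (-1.94 to 0.29), and the E2f2 difference was -0.10 without Atm-/- veh 3.

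Tfdp1 encodes DP1, the dimer partner of the E2Fs, and its probes gave unequal results. The dimmer probe was at 10.87, 10.57, 10.81 and 10.97 in Atm-/- veh and at 10.49, 10.41, 10.28 and 10.47 in Atm-/- NR. It fell by 23.8% (log2 difference -0.39, adjusted p = 0.0298), a call kept in 16 of 25 alternatives and lost without Atm-/- veh 3 (adjusted p = 0.058). The brighter probe differed by -0.15 (95% interval -0.35 to 0.05, adjusted p = 0.324), with overlapping groups. The related Tfdp2 differed by 0.10 (-0.15 to 0.35).

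Cdk4, the kinase of the D-type cyclins, fell on all 3 of its probes. On the brightest it was at 13.49, 13.41, 13.24 and 13.38 in Atm-/- veh and at 13.08, 13.14, 13.03 and 13.17 in Atm-/- NR, with no overlap on any of the 3. It fell by 17.4% on the brightest probe, fell by 18.5% on the second and fell by 19.6% on the third (log2 differences -0.28, -0.30 and -0.32, limma adjusted p = 0.0447, 0.0474 and 0.0369). The 3 probes read the same gene in the same RNA and are not replicates. Each lost the call in between 9 and 17 of 25 alternatives, and none changed sign.

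Cdk2, the kinase of cyclins E and A, was at 5.36, 5.88, 5.65 and 5.97 in Atm-/- veh and at 5.29, 5.18, 5.15 and 5.19 in Atm-/- NR. It was above background on 4 vehicle arrays and on 1 treated array, so the treated level is close to the limit of detection. Cdk2 was called lower (log2 difference -0.51, limma adjusted p = 0.0449), a size that rests on treated values mostly not above background, and the call was lost in 15 of 24 alternatives. Its partners were not called: Ccna2 differed by -0.67 (95% interval -1.31 to -0.04, adjusted p = 0.159) and by -0.34 without Atm-/- veh 3, cyclin E1 (Ccne1) by 0.26 (-0.14 to 0.66) and Ccne2 by 0.12 (-0.81 to 1.05).

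The count of called member probes moved with single arrays. Leaving out 1 array at a time gave 2 to 12 calls: 5 without WT veh 2, WT NR 2 or Atm-/- veh 2, 3 without Atm-/- veh 1, and 2 without Atm-/- veh 4 or Atm-/- NR 2, 3 or 4. The share called of all probes moved as well, to 7.84%, 8.28% and 11.6% without WT veh 2, WT NR 2 and Atm-/- veh 2, to 2.26% and 3.43% without Atm-/- veh 1 and 4, and to 4.06%, 2.51% and 5.47% without Atm-/- NR 2, 3 and 4. Without the 4 arrays lacking Y-linked signal 2 members were called, Lin37 and E2f4 (adjusted p = 0.045 for both), beside 0.948% of all probes. In all of these alternatives the 9 differences stayed negative. Cell type markers were mostly not called in the same comparison: 0 of 9 granule neuron, 2 of 10 Purkinje cell (both of Car8, higher) and 1 of 10 Bergmann glia and astrocyte probes (the dimmer of Gfap, lower) passed, and 0 of the probes of oligodendrocytes and their precursors, microglia, endothelium, choroid plexus, red blood cells or forebrain neurons. The red blood cell genes were lower in Atm-/- NR on 4 of 4, with a median of -0.19.

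**Figure D3:**
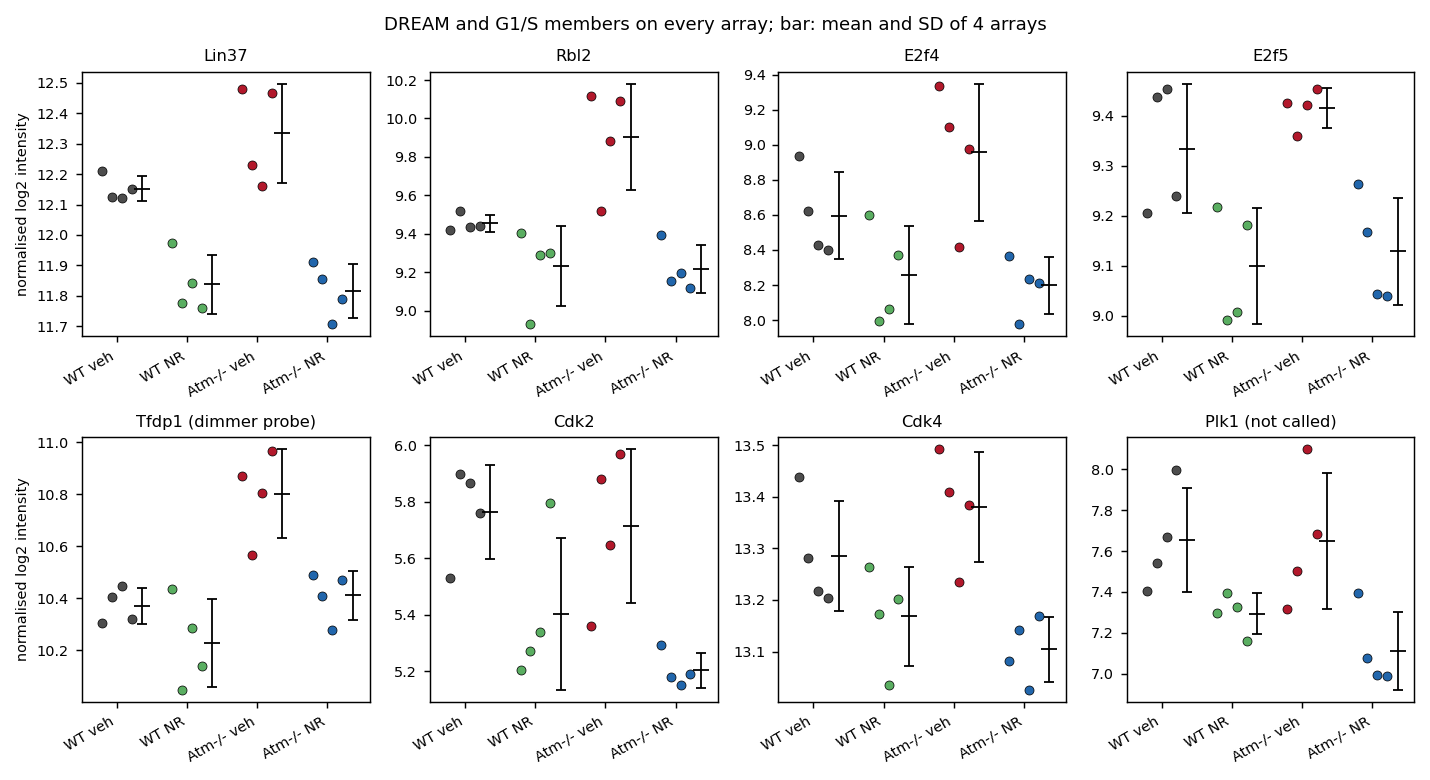
Normalised log2 intensity (vertical axes) on every array of the 4 groups for the 7 genes with a call between Atm-/- NR and Atm-/- veh and for Plk1, which was not called, with bars for the mean and SD of 4 arrays. The Atm-/- NR points lie below the Atm-/- veh points in all panels but that of Plk1, and the WT NR means lie below the WT veh means in all 8.

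The mitotic genes were lower on average in Atm-/- NR, without a call. All 8 tested differed in the negative direction, with a median of -0.39, and without Atm-/- veh 3 the median was -0.17, with 6 negative and 2 positive. Plk1, the kinase of mitotic entry, came nearest to the threshold. It was at 7.32, 7.50, 8.10 and 7.68 in Atm-/- veh and at 7.39, 7.08, 6.99 and 6.99 in Atm-/- NR, overlapping on 1 array. Its difference was -0.54 (95% interval -0.88 to -0.19, limma adjusted p = 0.0531), and -0.39 (adjusted p = 0.124) without Atm-/- veh 3. Of the others, the cyclins Ccnb1 (-0.44) and Ccnb2 (-0.26), Aurka (-0.11), Birc5 (-0.17) and Mki67 (-0.35) had adjusted p from 0.269 to 0.739. Birc5 and Mki67 turned to 0.17 and 0.39 without Atm-/- veh 3. Aurkb was above background on 4 Atm-/- veh and 0 Atm-/- NR arrays (means 5.26 and 4.78), without a call (limma adjusted p = 0.329). It was among the 8 through the Atm-/- veh arrays alone, so its negative sign is open to that selection. Without Atm-/- veh 3 its difference was -0.20.

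Other members differed upward without a call. Lin9, another MuvB subunit, was at 9.762, 9.996, 9.806 and 9.957 in Atm-/- veh and at 10.20, 10.22, 10.19 and 10.28 in Atm-/- NR, with no overlap. The difference was 0.34 (95% interval 0.11 to 0.58, limma adjusted p = 0.0677), while its dimmer probe differed by -0.25. Lin54, the subunit that binds the CHR motif, also did not overlap, at 10.16 to 10.41 against 10.43 to 10.54 (difference 0.21, adjusted p = 0.704). The large error of that difference came with 1 low array in WT veh, and the second probe of Lin54 differed by 0.13 (-0.05 to 0.30). Lin52 differed by -0.07 (-0.28 to 0.14).

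The replication genes gave no call, although Mcm5 was called in 2 alternatives. Mcm7, a subunit of the replicative helicase, was at 11.88, 11.81, 12.21 and 11.86 in Atm-/- veh and at 11.70, 11.61, 11.50 and 11.56 in Atm-/- NR. These did not overlap, and the difference was -0.35 (95% interval -0.63 to -0.06, limma adjusted p = 0.111). Mcm4 did not overlap in the other direction, at 11.96 to 12.10 against 12.16 to 12.23 (difference 0.15, adjusted p = 0.296). Of the remaining helicase subunits, Mcm5 differed by -0.33 (adjusted p = 0.142, and 0.0403 without WT veh 4), Mcm2 by -0.15 and Mcm3 by 0.19, and the sliding clamp Pcna differed by -0.07 (-0.22 to 0.08). The dimmer probes of Mcm3 went the other way, from means of 8.733 and 6.517 in Atm-/- veh to 8.656 and 6.401 in Atm-/- NR. Mcm6 spanned 8.30 to 11.84 over the arrays and differed by 1.002 with an interval from -0.74 to 2.74, so it carried almost no information on the groups.

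Cyclin D2 (Ccnd2), a G1 cyclin of progenitors, was at 10.24, 10.25, 10.42 and 10.38 in Atm-/- veh and at 10.61, 10.87, 11.13 and 10.58 in Atm-/- NR. The groups did not overlap, and the difference was 0.47 (95% interval -0.41 to 1.36, limma adjusted p = 0.485). The interval uses the spread of all 4 groups, and WT veh 4 read 13.20. The SD was 1.15 in WT veh, against 0.09 in Atm-/- veh and 0.26 in Atm-/- NR. Over 25 alternatives the limma adjusted p ran from 0.0674 to 0.685. The other D-type cyclins, Ccnd1 and Ccnd3, differed by -0.05 and 0.05. The CDK inhibitors Cdkn1b (p27) and Cdkn1c (p57) differed by -0.10 and 0.04, and the mitotic activators Mybl2 and Foxm1 by -0.21 and -0.04.

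**Figure D4:**
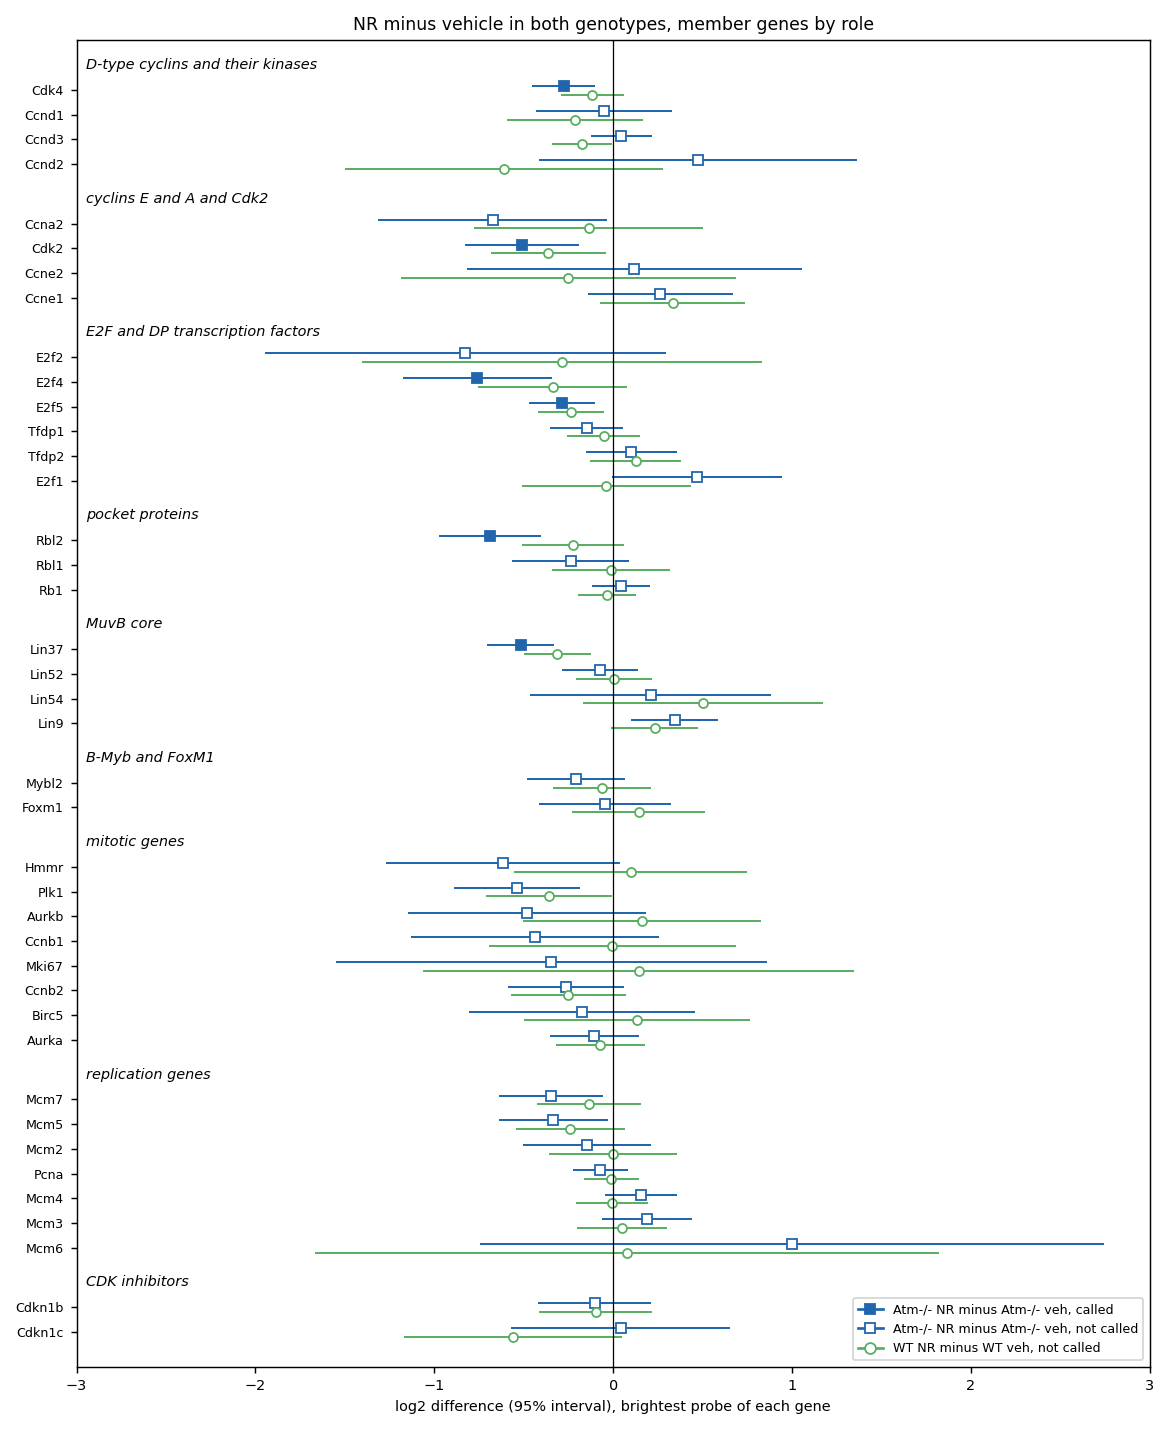
Log2 difference of NR minus vehicle with its 95% interval (horizontal axis) for the brightest probe of 40 members, grouped by role, in Atm-/- mice (squares, filled where called) and WT mice (circles, none called). The called squares are Cdk4, Cdk2, E2f4, E2f5, Rbl2 and Lin37, all left of 0, and the circle of each also lies left of 0.

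In WT mice no member was called after NR, as was the case for 0% of all probes. At an unadjusted p under 0.05 there were 5 member probes (8.77%, against 7.62% of all probes), and 5 did not overlap between the groups (8.77%, against 4.09%), all lower (2.49% of all probes). Lin37 was at 12.21, 12.13, 12.12 and 12.15 in WT veh and at 11.98, 11.78, 11.84 and 11.76 in WT NR. These groups did not overlap, and the difference was -0.31 (95% interval -0.50 to -0.13, unadjusted p = 0.0025, limma adjusted p = 0.494). Rbl2, Plk1 and cyclin D3 (Ccnd3) also did not overlap, with differences of -0.22, -0.36 and -0.18 (adjusted p = 0.74, 0.641 and 0.628). Neither did the dimmer probe of E2f2, at 5.659 to 6.374 in WT veh and 5.061 to 5.495 in WT NR (means 5.926 and 5.337). The brighter probe of E2f2 overlapped.

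The WT and the Atm-/- comparisons share no arrays, so the signs of the 9 called probes can be set side by side. On both slides the vehicle arrays were in row 1 and the NR arrays in row 2. A sign shared by the genotypes therefore cannot tell treatment from row. In WT all 9 differed in the negative direction, with a median of -0.22 against -0.39 in Atm-/-. Of all 1669 probes called lower in Atm-/-, 96.3% were negative in WT, so the members did not stand out in this. E2f4 differed by -0.34 in WT, E2f5 by -0.24, Cdk2 by -0.36, Tfdp1 by -0.14 and Cdk4 by -0.12, -0.16 and -0.10. The difference between the NR effects of the genotypes was tested directly and gave no call among the members or among all probes (0%). One member, Rbl2, had an unadjusted p under 0.05 for it (-0.47, 95% interval -0.86 to -0.07, adjusted p = 0.839), that is 1.75% of member probes against 5.27% of all. For Lin37 the difference was -0.21 (-0.46 to 0.05) and for E2f4 -0.42 (SE 0.27).

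Loss of Atm alone gave no call among the members. Between Atm-/- veh and WT veh 0 of 57 probes passed, against 0.0537% of all probes. At an unadjusted p under 0.05 there were 11 (19.3%, against 14.6%), and 6 did not overlap (against 7.6%), 4 of them lower (3.45% of all probes) and 2 higher (4.15% of all). The median over the 40 genes was 0.07, with 24 higher and 16 lower, and it was -0.04 without Atm-/- veh 3. The Atm-/- veh arrays serve in this comparison and in the NR comparison above, so a low or high value in them moves both.

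Hmmr, the hyaluronan-mediated motility receptor that also binds the mitotic spindle, had the largest upward difference. It was at 8.498, 8.482, 9.081 and 8.740 in WT veh and at 10.12, 8.91, 10.12 and 9.50 in Atm-/- veh. One Atm-/- veh array lay within the WT range. The difference was 0.96 (95% interval 0.31 to 1.61, unadjusted p = 0.00667, limma adjusted p = 0.216), and 0.81 (adjusted p = 0.346) without the array with the red blood cell signal. In WT NR it was at 9.37, 8.44, 8.42 and 8.96, and in Atm-/- NR at 8.93, 9.12, 8.53 and 9.61, a difference of -0.61 from Atm-/- veh (95% interval -1.26 to 0.03, adjusted p = 0.206). Hmmr was singled out by the study on these samples, so its direction is not independent evidence. The same holds for E2f1 and Cdkn1a, described below, which the study also listed among its most changed genes. Its 2 dimmer probes were above background on 0 of 16 arrays.

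Rbl2 and the dimmer probe of Tfdp1 were higher on all 4 Atm-/- veh arrays than on any WT veh array. The Rbl2 arrays given above lay at 9.52 to 10.12 against 9.42 to 9.52, with a difference of 0.45 (95% interval 0.17 to 0.73, limma adjusted p = 0.206). The Tfdp1 probe was at 10.31, 10.40, 10.45 and 10.32 in WT veh and differed by 0.43 (0.22 to 0.65, adjusted p = 0.163). Its brighter probe differed by 0.15 (-0.04 to 0.35). Mybl2, the B-Myb partner of the MuvB core, was at 7.28, 7.28, 7.31 and 7.54 in WT veh and at 7.89, 7.42, 7.68 and 7.64 in Atm-/- veh (difference 0.31, 0.04 to 0.58, adjusted p = 0.292).

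Several downward differences moved with WT veh 4, the array with the choroid plexus and forebrain signal. Ccnd2 was at 10.97, 10.83, 10.92 and 13.20 in WT veh, against 10.24 to 10.42 in Atm-/- veh. The groups did not overlap on any of its 3 probes, with differences of -1.16, -0.84 and -1.32 (limma adjusted p = 0.252, 0.339 and 0.221), which became -0.58, -0.32 and -0.74 without that array. Cdkn1c was at 11.73, 11.48, 11.55 and 13.00 in WT veh and at 11.15, 11.28, 11.40 and 11.08 in Atm-/- veh, a difference of -0.71 (adjusted p = 0.284) and of -0.36 without it. E2f1, whose groups overlapped slightly, was at 7.48, 7.64, 7.96 and 8.59 in WT veh and at 7.10, 6.96, 7.49 and 7.41 in Atm-/- veh, a difference of -0.68 (adjusted p = 0.223) and of -0.45 without it. Markers of oligodendrocyte precursors were also lower in Atm-/- veh than in WT veh, on 8 of 8 genes with none called (median -0.33), and their mean level ranged from 9.48 to 9.61 in Atm-/- veh and from 9.49 to 10.64 in WT veh. All 8 were detected on all 16 arrays. The part of the choroid plexus, forebrain, microglia and oligodendrocyte precursor signal in these values was not tested.

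Under NR the genotypes were closer still. Between Atm-/- NR and WT NR 0 of the 57 member probes were called, against 0.0537% of all probes, and 1 had an unadjusted p under 0.05 (1.75%, against 5.21%). That was Foxm1, the activator of mitotic genes, at 5.87, 6.64, 6.40 and 6.36 in WT NR and 5.72, 5.99, 6.23 and 5.68 in Atm-/- NR (difference -0.41, 95% interval -0.78 to -0.05, limma adjusted p = 0.915). One probe (1.75%, against 4% of all), that of Ccnd1, did not overlap (difference -0.20). The 7 genes called in the NR comparison lay at most 0.2 from WT NR, with Lin37 at -0.02 (-0.20 to 0.16), Rbl2 at -0.02 (-0.30 to 0.26) and E2f4 at -0.06 (-0.47 to 0.35). Oligodendrocyte precursor markers were lower in Atm-/- NR on 8 of 8 genes, again with none called (median -0.30). They were not alone in this. Mature oligodendrocyte markers were lower on 6 of 6 genes (median -0.35) and microglia markers on 5 of 5 (-0.23), with none called. Red blood cell genes were higher on 4 of 4 (0.31), also with none called, and each remaining marker list held genes in both directions.

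A further 86 cell cycle genes outside the 44 gave calls in both directions after NR in Atm-/- mice and in no other comparison. Of their 100 tested probes 11 (11%) were called, a share near the 9.04% of all probes, on 6 genes higher and 5 lower, with a median over 71 genes of 0.02. The genes called higher were Gmnn, the inhibitor of origin licensing (0.50, limma adjusted p = 0.028), the GINS subunits Gins4 (0.38) and Gins1 (0.37, dimmer of 2 probes), the origin subunit Orc6 (0.28), the repressor E2f6 (0.28) and the passenger protein Incenp (0.23). Gmnn was at 11.34, 11.43, 11.31 and 11.29 in Atm-/- veh and at 11.65, 12.00, 11.91 and 11.81 in Atm-/- NR, with no overlap. Without Atm-/- veh 3 the calls of Gmnn (limma adjusted p = 0.0579), Gins4 (0.078), E2f6 (0.0529) and Incenp (0.074) were lost, with differences of 0.49, 0.38, 0.27 and 0.23. The second probes of Gins4 and Incenp differed by -0.04 each, without a call. The brighter probe of Gins1 and the dimmer probe of Gmnn were not called either.

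The 5 lower genes included Cdkn1a, which encodes the CDK inhibitor p21. It was at 10.01, 10.24, 11.64 and 9.72 in Atm-/- veh and at 9.35, 9.17, 9.17 and 9.39 in Atm-/- NR, with no overlap. The difference was -1.13 (95% interval -1.76 to -0.50, limma adjusted p = 0.0309), and -0.73 (adjusted p = 0.0156) without Atm-/- veh 3, on which it was highest. The condensin subunit Ncapd2 fell by 0.60 on the log2 scale (adjusted p = 0.0138), from 12.70 to 12.75 in Atm-/- veh to 11.98 to 12.19 in Atm-/- NR. Dyrk1a, the kinase that promotes DREAM assembly, differed by -0.23 (adjusted p = 0.045, and 0.0893 without Atm-/- veh 3). The dimmer probe of Dyrk1a was not called. The dimmer probe of the spindle protein Prc1 was above background on 4 Atm-/- veh and 0 Atm-/- NR arrays (means 5.72 and 4.74, limma adjusted p = 0.0174). The size of that difference rests on treated values not above background. The brighter probe of Prc1 differed by -0.22 without a call. The ubiquitin enzyme Ube2c was at 6.84, 6.80, 7.94 and 5.58 in Atm-/- veh and at 5.38, 5.70, 5.17 and 5.80 in Atm-/- NR. Its groups overlapped, and the difference of -1.28 (adjusted p = 0.0394) became -0.90 (adjusted p = 0.0769) without Atm-/- veh 3. Without the 4 arrays lacking Y-linked signal, Cdkn1a was the one gene of these 11 to keep its call (-0.77, adjusted p = 0.0461).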

How the data were processed

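Labelled RNA of 16 mice, 4 per group, was read on one-colour arrays. The authors deposited scanner files with the background-subtracted intensity of each spot and its quality marks, and a table of quantile-normalised z-scores, whose values are scores on a log scale, used here as an alternative. Control spots were left out, probes well above background on all 4 arrays of a group were kept, spot intensities were quantile normalised on the log2 scale and outlier-marked spots dropped. This left 37253 probes, after 788 were lost to outlier marks, none of them a member probe. The 4 group means were fitted with limma 3.58.1 (R 4.3.3, 12 residual degrees of freedom), with Benjamini-Hochberg adjustment over all probes. The fit was tested on simulated data.

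Every member was named, and full values were given for members called, for those not overlapping between Atm-/- veh and WT veh or Atm-/- NR and Atm-/- veh, for Hmmr and for the lowest unadjusted p of each role. The members and gene lists were chosen with earlier results of these data known. Each array is one mouse, and the number of arrays limits the precision. Replicate numbers did not pair mice (correlations of same-numbered deviations from -0.33 to 0.37). Alternatives were background correction, scaling, detection filter, z-scores, replicate block and left-out arrays. The methods' tests were run as read from their text, which does not define the z-test. Promoters for 12 members were not analysed here.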

Additional observations from a re-analysis of the deposited data

Results flagged for a closer look

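Among 64 sets of 4 arrays, for the 16 members with full values, 5 held an array whose gap to its nearest neighbour exceeded Dixon's critical share of the group's range, a mark that chance gives to about 1 in 20 groups. For 3 of them the array was WT veh 4, which also carried the choroid plexus and forebrain markers: Ccnd2 (13.20 against 10.83 to 10.97, gap 0.941 of the range), Cdkn1c (13.00 against 11.48 to 11.73, gap 0.834) and Mybl2 (7.54 against 7.28 to 7.31, gap 0.876). Lin54 was low on WT veh 1 (8.68 against 10.41 to 10.63, gap 0.887), while its other probe read 10.15 on that array, within 0.24 of the rest. The brighter Tfdp1 probe was high on Atm-/- veh 4 (11.30 against 11.05 to 11.09, gap 0.844).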

How the results depend on the processing

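No direction of a called member was reversed in any alternative. For Atm-/- NR against Atm-/- veh the 9 calls became 5 with normexp background correction, where 9.8% of all probes were called. The count was 2 without the arrays lacking Y-linked signal (0.948% of all probes) and 3 with the compared groups fitted alone (6.96%). With 1 array left out it was 2 to 12 (2.26% to 11.6%). On the deposited z-scores the methods' t-test gave 17 at their threshold (27.9% of all probes passed) and 5 after Benjamini-Hochberg adjustment (8.16%), and their rule gave 2 (3.87%). In the other comparisons the t-test at its threshold gave 5 calls (11.5% of all probes; rule 2, 1.92%) for Atm-/- veh against WT veh, 6 (7.55%; rule 1, 2.07%) for WT NR against WT veh and 1 (6.33%) for Atm-/- NR against WT NR, where limma gave 0. The median for Atm-/- veh against WT veh ranged from -0.035 to 0.111 with 1 array left out, and was -0.06 without both arrays with high markers of other cell types, an alternative chosen after seeing the data. Without the arrays lacking Y-linked signal the WT NR median was -0.172 and that of the difference of NR effects 0.012. With the replicate block 8 member probes were called, beside 8.43% of all probes. E2f5 was lost there (limma adjusted p = 0.0793), while Lin37 (0.00997) and Rbl2 (0.0122) were called. Lin9, Plk1 and Mcm5 gained a call in 3, 6 and 2 of 25 alternatives, Mcm5 without WT veh 4 and without both arrays with high markers (-0.38, adjusted p = 0.0366). With probes kept at 3 of 4 arrays above background, 41 genes were testable. Genes near background, such as Cdk2, Aurkb, Ccne2, Bub1, Cdk1 and Top2a, are measured with the least certainty, and a missed threshold does not show that a gene was alike in the groups.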
